A study of Homo sapiens with 9 samples.

Results

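The mTORC1 brakes described here are 8 genes whose products restrain the growth kinase complex mTORC1, namely DDIT4, SESN1, SESN2, SESN3, TSC1, TSC2, DEPTOR and AKT1S1. They were chosen by gene symbol for this known role, with earlier results of these data known. They are 8 of the 57820 named genes in the count table, and all 8 passed the filter on low counts in every comparison. Their RNA was measured by RNA-seq in 9 cultures of the cell line MOLM13, a human acute myeloid leukemia line with a KMT2A fusion and an internal duplication of FLT3. The RBM5 KO group (n = 3) carries Cas9 and 1 guide against coding exons of RBM5, RBM5-sg1, the RBM5 OE group (n = 3) carries a lentiviral RBM5-P2A-Venus cDNA, and the CTRL group (n = 3) carries a non-targeting sgRNA. The labels give the same serum-containing medium for all cells, no drug treatment and no day of harvest. A figure legend of the study gives 8 days after transduction for RBM5 KO against CTRL, while its splicing methods give 3 days. By the methods of the study, Cas9 and sgRNA cells were selected with antibiotics, and whether the RBM5 OE cells were selected in the same way is not given in the sources used here. RBM5 OE and CTRL differ in the kind of vector as well as in RBM5, and these cannot be told apart here. Whether the RBM5 KO cells are a mixed population or a clone is not given in the sources used here.

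mTORC1 joins the kinase mTOR with Raptor and mLST8 and, when amino acids, energy and growth factors suffice, drives protein and lipid synthesis and holds back autophagy. Its activator at the lysosome is the small GTPase Rheb, and the TSC complex, built of hamartin (TSC1), tuberin (TSC2) and TBC1D7, switches Rheb off. DDIT4, also called REDD1, is a short-lived protein induced by hypoxia, glucocorticoids and the integrated stress response, and it acts through TSC2. The sestrins SESN1, SESN2 and SESN3 bind GATOR2 and so relieve GATOR1, which switches off the Rag GTPases, and SESN2 is a leucine sensor. DEPTOR and AKT1S1 (PRAS40) bind mTORC1 itself, and phosphorylation by AKT releases AKT1S1 from Raptor. ATF4, the effector of the integrated stress response, induces DDIT4 and SESN2, and FOXO factors induce SESN3. The RNA levels below do not measure the phosphorylation, half-life or activity of these proteins, nor that of mTORC1.

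RBM5, an RNA-binding splicing regulator, checks the labels. It had 70.5, 73.9 and 79.4 CPM (counts divided by library size after TMM scaling) in RBM5 KO and 380, 414 and 416 CPM in RBM5 OE, against 122, 117 and 113 CPM in CTRL. The log2 fold change was −0.65 in RBM5 KO (standard error 0.084, adjusted p = 0.00692) and 1.78 in RBM5 OE (0.068, adjusted p = 4.11e-08), and the counts do not separate the transcript of the vector from that of the gene, nor edited from intact transcripts. Here and below, p-values are from edgeR's quasi-likelihood test, adjusted by Benjamini-Hochberg over the whole table, and a gene is called at an adjusted p under 0.05. In RBM5 KO the call of RBM5 was lost without CTRL replicate 1 (adjusted p = 0.0606) and on log2(TPM + 1) (limma, adjusted p = 0.0557). The libraries held 25522952 to 27871988 counts each. All 6 myeloid markers were expressed, with a summed level of 829 to 1009 TPM in RBM5 KO and 1064 to 1124 TPM in RBM5 OE, against 947 to 996 TPM in CTRL. Markers of T cells, B cells, erythroid cells, fibroblasts and epithelium summed to at most 4.08 TPM per list in any library. As these are bulk samples, a change of RNA per cell and a change in the share of cells with the RNA cannot be told apart.

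In RBM5 KO, DDIT4, SESN2 and TSC2 were lower than in CTRL and no brake gene was called higher, although at an unadjusted p under 0.05 there were 2 (SESN1 and SESN3), and DESeq2 and limma-voom called 0. In RBM5 OE, DDIT4, SESN2 and SESN3 were higher than in CTRL and SESN1 was lower. TSC1, DEPTOR and AKT1S1 were called in neither. Against CTRL, 3 of 8 brakes were called in RBM5 KO, beside 2.51% of all 14218 genes tested, and all 3 were among the 1.67% of genes called lower, while 0.837% were called higher. In RBM5 OE 4 of 8 were called, beside 40.1% of 14370 genes, of which 3 were called higher (19.8% of all genes) and 1 lower (20.2%). Thus in RBM5 OE the share of brakes called was near that of all genes. The groups did not overlap for 5 of 8 brakes in RBM5 KO and CTRL, beside 22.9% of all genes, and for 5 of 8 in RBM5 OE and CTRL, beside 51.7%. The median absolute log2 fold change of the 8 brakes was 0.34 in RBM5 KO, where that of all genes was 0.16, and 0.34 in RBM5 OE, where that of all genes was 0.28. Both comparisons use the same CTRL libraries. As the brakes were chosen with earlier results of these data known, these shares and medians are descriptions.

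**Figure D1:**
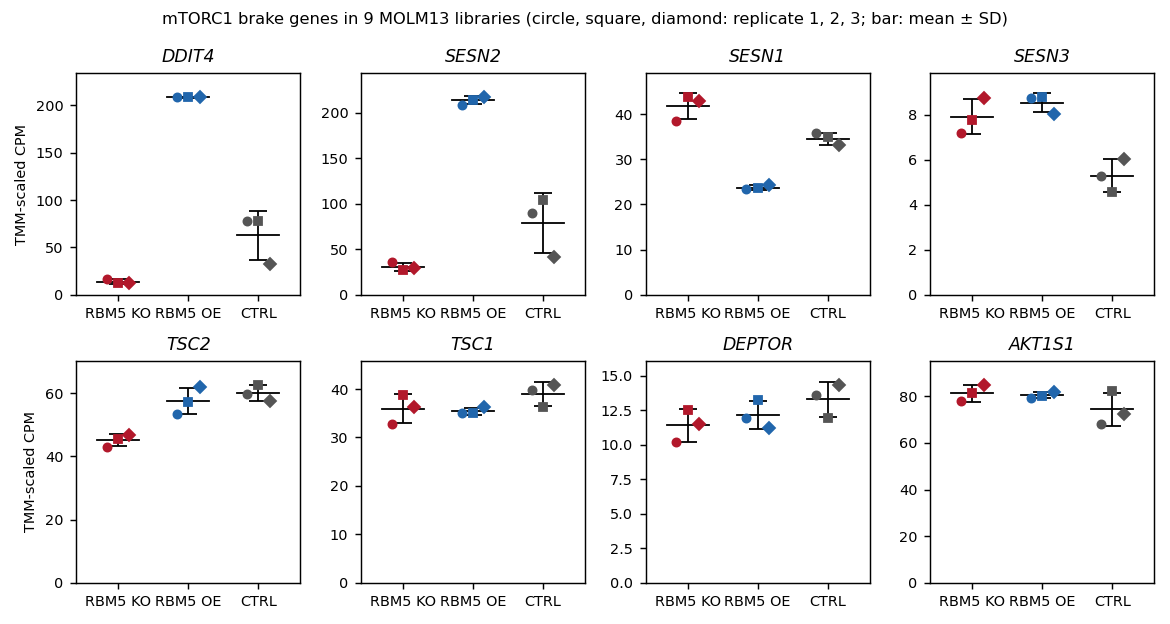
TMM-scaled CPM of the 8 brake genes (y axis from 0, 1 panel per gene) in RBM5 KO, RBM5 OE and CTRL, with 1 point per replicate and bars for mean ± SD (n = 3 per group). DDIT4 and SESN2 lie near 208 and 213 CPM in RBM5 OE and below every CTRL library in RBM5 KO, with CTRL replicate 3 well below the other CTRL replicates, while TSC1, DEPTOR and AKT1S1 stay within narrow ranges.

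DDIT4 varied most. It had 17.1, 12.8 and 12.2 CPM in RBM5 KO and 208, 208 and 209 CPM in RBM5 OE, against 77.9, 77.4 and 32.8 CPM in CTRL. The 3 groups did not overlap, the RBM5 OE libraries were almost equal, and CTRL replicate 3 held less than the other CTRL replicates, 1.24 lower on the log2 scale. DDIT4 was 4.47-fold lower in RBM5 KO than in CTRL (−2.16 on the log2 scale, standard error 0.30, adjusted p = 0.0094), and 0.394% of all genes tested had an absolute change of this size or more. It was 3.33-fold higher in RBM5 OE than in CTRL (1.74, standard error 0.24, adjusted p = 0.00018), a size that 1.65% of all genes reached. The fall in RBM5 KO was not called without CTRL replicate 1 (log2 fold change −1.97, adjusted p = 0.0644) or without CTRL replicate 2 (−1.99, adjusted p = 0.0636). Without CTRL replicate 3 it was −2.47 (adjusted p = 0.000442), and with RBM5 KO replicate 1 left out too it was −2.64. The rise in RBM5 OE without CTRL replicate 3 was 1.42 (adjusted p = 6.85e-12).

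SESN2, the stress-induced sestrin, followed the same order. It had 35.8, 27.5 and 29.6 CPM in RBM5 KO and 209, 214 and 217 CPM in RBM5 OE, against 90.3, 105 and 41.9 CPM in CTRL. Again the groups did not overlap, and CTRL replicate 3 lay 1.21 below the other CTRL replicates on the log2 scale. The log2 fold change was −1.35 in RBM5 KO (standard error 0.28, adjusted p = 0.0463) and 1.44 in RBM5 OE (0.23, adjusted p = 0.000612), sizes that 1.62% and 2.89% of all genes reached. The call in RBM5 KO was lost under 7 of 16 alternatives, among them limma-voom (adjusted p = 0.0864), log2(TPM + 1) (limma, adjusted p = 0.118) and leaving out CTRL replicate 1 (0.203), CTRL replicate 2 (0.180), RBM5 KO replicate 2 (0.161) or RBM5 KO replicate 3 (0.157). With both CTRL replicate 3 and RBM5 KO replicate 1 left out, the log2 fold change was −1.77 (adjusted p = 1.01e-12). In RBM5 OE it was called under all 15 alternatives, and without CTRL replicate 3 it was 1.13.

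SESN1 had 38.4, 43.8 and 43.0 CPM in RBM5 KO and 23.4, 23.6 and 24.3 CPM in RBM5 OE, against 35.8, 34.8 and 33.1 CPM in CTRL. Its 3 groups did not overlap, with RBM5 OE lowest and RBM5 KO highest, the reverse of the order of SESN2. In RBM5 OE SESN1 fell (log2 fold change −0.54, standard error 0.075, adjusted p = 0.000206, called under all 15 alternatives). In RBM5 KO its change of 0.27 on the log2 scale (standard error 0.094, adjusted p = 0.188) was not called. SESN3, the sestrin induced by FOXO factors, was the least abundant brake, with 7.20, 7.77 and 8.76 CPM in RBM5 KO and 8.74, 8.79 and 8.04 CPM in RBM5 OE, against 5.26, 4.56 and 6.05 CPM in CTRL. Both groups lay above all CTRL libraries in CPM but not in TPM, where the highest value, 1.38, was that of a CTRL library. The log2 fold change of SESN3 was 0.69 in RBM5 OE (standard error 0.15, adjusted p = 0.00312) and 0.58 in RBM5 KO (0.17, adjusted p = 0.118), the second not called. On log2(TPM + 1) its value in RBM5 OE was 0.22 and was not called (limma, adjusted p = 0.355). Its value in RBM5 KO was called with all 9 libraries in 1 fit (adjusted p = 0.0367) and with CTRL replicate 3 and RBM5 KO replicate 1 left out (0.75, adjusted p = 0.00496).

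Of the TSC complex, TSC2, the subunit that acts on Rheb, had 43.1, 45.4 and 46.8 CPM in RBM5 KO and 53.5, 57.4 and 62.0 CPM in RBM5 OE, against 59.8, 62.7 and 57.7 CPM in CTRL. RBM5 KO lay below all other libraries, and RBM5 OE overlapped CTRL. The log2 fold change of TSC2 was −0.41 in RBM5 KO (standard error 0.086, adjusted p = 0.0452) and −0.06 in RBM5 OE (0.076, adjusted p = 0.589). Its call in RBM5 KO was lost under 9 of 16 alternatives, including limma-voom (just above the threshold), log2(TPM + 1) (−0.20, limma, adjusted p = 0.550) and leaving out any CTRL replicate (0.0803 to 0.186) or RBM5 KO replicate 2 or 3 (0.148 and 0.138). Counting was unstranded, and 3.82% of the exonic bases of TSC2 overlap PKD1 on the other strand, so reads there cannot be told apart. TSC1, the stabilising partner, had 32.8, 38.8 and 36.4 CPM in RBM5 KO and 35.0, 35.0 and 36.3 CPM in RBM5 OE, against 39.9, 36.3 and 40.9 CPM in CTRL. RBM5 OE lay just below all CTRL libraries and RBM5 KO overlapped them. Its log2 fold changes of −0.12 (95% interval −0.35 to 0.11) in RBM5 KO and −0.14 (−0.30 to 0.03) in RBM5 OE were not called.

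The brakes that bind mTORC1 itself were not called in any comparison. DEPTOR had 10.2, 12.5 and 11.5 CPM in RBM5 KO and 12.0, 13.2 and 11.2 CPM in RBM5 OE, against 13.6, 11.9 and 14.3 CPM in CTRL. Its groups overlapped, with log2 fold changes of −0.22 (95% interval −0.52 to 0.08) in RBM5 KO and −0.13 (−0.38 to 0.13) in RBM5 OE. AKT1S1 had 77.8, 81.2 and 84.9 CPM in RBM5 KO and 79.2, 80.2 and 81.8 CPM in RBM5 OE, against 68.2, 82.2 and 72.6 CPM in CTRL. Its groups overlapped as well, with log2 fold changes of 0.13 (−0.08 to 0.34) in RBM5 KO and 0.12 (−0.05 to 0.29) in RBM5 OE. These intervals exclude changes of the size seen for DDIT4 and SESN2.

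**Figure D2:**
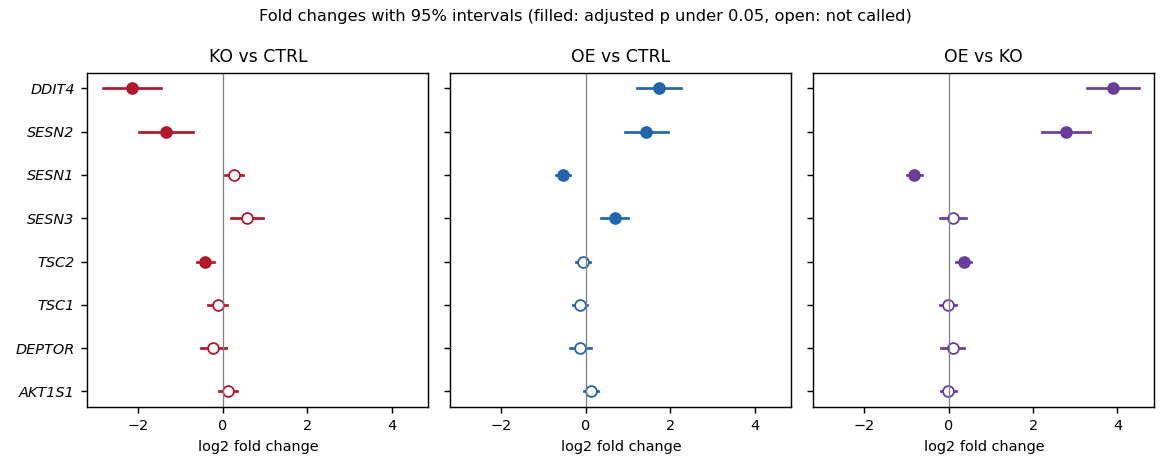
Log2 fold change (x axis) of each brake gene (rows) for RBM5 KO over CTRL, RBM5 OE over CTRL and RBM5 OE over RBM5 KO, with 95% intervals; filled points passed an adjusted p under 0.05. DDIT4 and SESN2 reach −2.16 and −1.35 in RBM5 KO and 1.74 and 1.44 in RBM5 OE, SESN1 points the other way, and the intervals of TSC1, DEPTOR and AKT1S1 span 0.

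Set against each other, in a fit of all 9 libraries in which CTRL helps to estimate the spread, RBM5 OE and RBM5 KO differed in 4 of 8 brakes, beside 40.1% of 14754 genes tested, so the share of brakes called was again near that of all genes. DDIT4, SESN2 and TSC2 were higher in RBM5 OE (19.5% of all genes were) and SESN1 was lower (20.6% of all genes were), and 4 of 8 had groups that were fully separate, beside 52.6%. The log2 fold change of DDIT4 was 3.89 (standard error 0.28, adjusted p = 2.75e-06), a 14.8-fold difference that 0.298% of all genes reached. That of SESN2 was 2.78 (0.26, adjusted p = 1.32e-05), reached by 0.915% of all genes. SESN1 was −0.81 (0.080, adjusted p = 1.98e-05). TSC2 was 0.35 (0.079, adjusted p = 0.00414), a call lost on log2(TPM + 1) (0.23, limma, adjusted p = 0.162). DDIT4, SESN1 and SESN2 were called in this comparison under all 19 alternatives. SESN3 was at 0.11 (95% interval −0.20 to 0.42), and the median absolute value of the 8 brakes was 0.23, where that of all genes was 0.32.

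The rank of the brakes by abundance differed between groups, mostly in the places of DDIT4 and SESN2. The values here are on the TPM scale, which divides by transcript length. In TPM the mean of SESN1 was also above that of TSC2 in RBM5 KO and below it in RBM5 OE and CTRL. In CPM, SESN1 lay below TSC2 in each RBM5 KO library. AKT1S1 led in RBM5 KO with 45.1 ± 1.29 TPM (SD, n = 3), followed by SESN1 (20.1 ± 2.02) and TSC2 (18.1 ± 2.65), which overlapped, and then by DDIT4 (11.8 ± 2.11) and SESN2 (10.7 ± 1.40), which overlapped too. In RBM5 OE the order was DDIT4 (173 ± 2.51 TPM), SESN2 (75.8 ± 2.15), AKT1S1 (45.7 ± 1.22), TSC2 (21.4 ± 2.11) and SESN1 (11.3 ± 0.844), with no overlap between neighbours. In CTRL DDIT4 (49.5 ± 19.2 TPM) overlapped AKT1S1 (42.1 ± 2.96) and SESN2 (27.2 ± 10.7), and SESN2 overlapped TSC2 (20.8 ± 0.498) and SESN1 (16.4 ± 0.613), as DDIT4 and SESN2 were low in CTRL replicate 3 (27.5 and 15.0 TPM). Below them in every group came TSC1, DEPTOR and SESN3, the first at 7.29 ± 0.316 TPM in RBM5 KO, 7.98 ± 1.56 in RBM5 OE and 7.47 ± 0.457 in CTRL. SESN3 averaged 1.01 ± 0.206 TPM in RBM5 KO and 1.15 ± 0.117 TPM in RBM5 OE, against 0.873 ± 0.443 TPM in CTRL. DDIT4L, the paralog of DDIT4, had no count in any of the 9 libraries.

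The start regions of the 3 brakes called in RBM5 KO are shown to let the moving genes be compared by sequence. They are the 250 bases before the start of transcription in RefSeq (GRCh38.p14, each on the plus strand), at chr10:72273674-72273923 for DDIT4, chr1:28259268-28259517 for SESN2 and chr16:2047735-2047984 for the more upstream start of TSC2. Capitals mark matches on either strand to 3 motifs, the ATF4-C/EBP composite TGATGNAA, the hypoxia response core ACGTG and the FOXO motif TGTTTAC.
DDIT4: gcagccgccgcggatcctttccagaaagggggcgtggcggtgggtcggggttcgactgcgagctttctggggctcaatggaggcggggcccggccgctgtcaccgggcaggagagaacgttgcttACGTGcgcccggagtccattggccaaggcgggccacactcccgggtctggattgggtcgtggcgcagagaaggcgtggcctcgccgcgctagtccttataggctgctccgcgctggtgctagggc
SESN2: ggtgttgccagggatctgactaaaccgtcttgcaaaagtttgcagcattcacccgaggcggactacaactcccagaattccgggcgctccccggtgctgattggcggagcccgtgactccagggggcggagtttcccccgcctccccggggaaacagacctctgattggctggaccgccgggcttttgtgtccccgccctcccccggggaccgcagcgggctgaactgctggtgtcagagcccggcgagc
TSC2: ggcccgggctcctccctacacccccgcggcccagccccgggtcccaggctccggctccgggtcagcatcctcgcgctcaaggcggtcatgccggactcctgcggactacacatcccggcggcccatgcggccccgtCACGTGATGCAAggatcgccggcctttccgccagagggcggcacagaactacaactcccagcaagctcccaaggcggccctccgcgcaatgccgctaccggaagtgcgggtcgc

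Of the 8 brakes, 6 had an entry in this table. The DDIT4 window holds 1 hypoxia core, starting 125 bases before the start of transcription. The TSC2 window shown holds the ATF4-C/EBP composite, starting 110 bases before the start, and the hypoxia core on both strands, overlapping each other and the composite. The window of the other TSC2 start, chr16:2047952-2048201, holds none of the 3 motifs. The SESN2 window holds none of the 3 motifs, and no match was found in the windows of SESN1, SESN3 and TSC1 either. Of all 35116 windows of this length, 3.14% hold the ATF4-C/EBP composite, 18.5% the hypoxia core and 2.98% the FOXO motif. Elements farther from the start lie outside these windows. In GRCh37, the build of the counts, DDIT4 spans 74033678 to 74035794 on chromosome 10, SESN2 spans 28586029 to 28609002 on chromosome 1, and TSC2 spans 2097968 to 2139492 on chromosome 16, all on the plus strand.

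Genes downstream of the factors known to induce brakes were compared in the same fits, by lists written with earlier results of these data known. ATF4 targets were lower in RBM5 KO than in CTRL for 7 of 10 genes, beside 1.67% of all genes. They were higher for 0 (0 also at an unadjusted p under 0.05, by DESeq2 and by limma-voom), beside 0.837%. Their median log2 fold change was −1.22, where that of all genes was 0.01. In RBM5 OE 6 of 10 were higher, beside 19.8% of all genes, and 0 lower (0 by the same 3 measures), beside 20.2%. The median was 0.73. The 4 with the smallest p in RBM5 KO were ASNS (asparagine synthetase, −2.05, adjusted p = 0.00454), PHGDH (−1.92, 0.00692) and PSAT1 (−1.76, 0.00706) of serine synthesis, and the amino acid transporter subunit SLC3A2 (−1.00, 0.0258). In RBM5 OE they were ATF5 (1.16, adjusted p = 2.16e-05), CEBPG (0.71, 4.74e-05) and ATF3 (2.01, 6.49e-05), all transcription factors, and the pseudokinase TRIB3 (1.70, 8.35e-05). ASNS, PSAT1 and PHGDH, which were called lower in RBM5 KO, were not called in RBM5 OE, with values of 0.21, 0.16 and 0.06. ATF3 and ATF5 rose in RBM5 OE and had values of −0.21 and 0.18 in RBM5 KO, not called. TRIB3, SLC7A11 and SLC3A2, like DDIT4 and SESN2, were called lower in RBM5 KO and higher in RBM5 OE, although in RBM5 KO the calls of TRIB3 and SLC7A11 were each lost under 7 of 16 alternatives and that of SLC3A2 under 4. Between RBM5 OE and RBM5 KO all 10 were higher in RBM5 OE, beside 19.5% of all genes, with a median of 2.10. The low CTRL library was shared with DDIT4 and SESN2, as 9 of 10 ATF4 targets were lowest of CTRL in CTRL replicate 3. SESN3, TSC1 and DEPTOR were instead highest of CTRL in that library. Of the ATF4 targets, 8 of 10 were highest of RBM5 KO in RBM5 KO replicate 1. The part of these libraries in the fall of the list was not tested beyond leaving them out, when 8 of 10 were called lower, while leaving out CTRL replicate 1 gave 1 of 10 and CTRL replicate 2 gave 2 of 10.

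**Figure D3:**
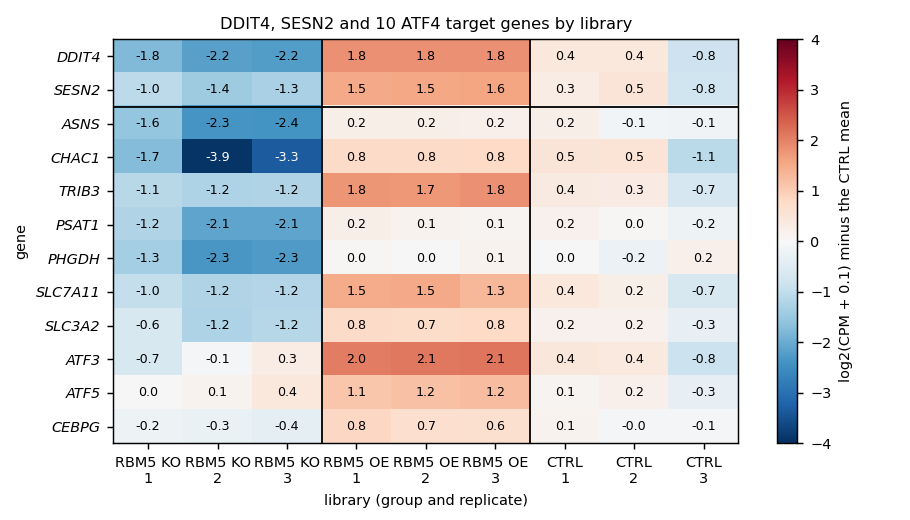
Log2(CPM + 0.1) minus the mean of CTRL for DDIT4, SESN2 and the 10 listed ATF4 targets (rows) in each of the 9 libraries (columns, grouped as RBM5 KO, RBM5 OE and CTRL), with the value printed in each cell. CTRL replicate 3 is at −0.83 for DDIT4 and −0.81 for SESN2, between the other CTRL replicates and RBM5 KO, and ASNS, PSAT1 and PHGDH are low in RBM5 KO without being high in RBM5 OE.

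Of the inducing factors themselves, 2 of 9 were called lower in RBM5 KO (1.67% of all genes were), among them CEBPB (−1.01, adjusted p = 0.0135). ATF4 mRNA had a log2 fold change of −0.52 in RBM5 KO (standard error 0.12, adjusted p = 0.0571) and 0.15 in RBM5 OE (0.074, adjusted p = 0.121), neither called, although ATF4 is known to be regulated mainly at translation. In RBM5 OE 6 of 9 factors rose, beside 19.8% of all genes, and 1 fell, beside 20.2%. DDIT3 (CHOP), the stress factor that pairs with C/EBP proteins, rose by 2.12 (adjusted p = 4.75e-06), with 34.0, 32.3 and 29.6 CPM in RBM5 OE against 7.81, 9.21 and 5.14 CPM in CTRL. It was at −0.04 in RBM5 KO. CEBPB rose by 1.11 (adjusted p = 6.98e-05), the glucocorticoid receptor NR3C1 by 0.67 (7.6e-05) and HIF1A by 0.78 (0.000144). FOXO1 fell (−1.02, adjusted p = 0.0253), a call lost under 8 of 15 alternatives. The median of the list was 0.11 in RBM5 KO and 0.63 in RBM5 OE.

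Of the hypoxia targets 1 of 8 tested in RBM5 KO was called lower, VEGFA (−1.10, adjusted p = 0.0258), which ATF4 also induces, a call lost under 7 of 16 alternatives. In RBM5 OE 2 of 7 were higher, VEGFA (1.26, adjusted p = 0.00013) and P4HA1 (0.24, 0.0321), the second lost under 7 of 15 alternatives. Of the glucocorticoid receptor targets 0 of 6 were called in RBM5 KO (1 higher at an unadjusted p under 0.05, 0 by DESeq2 and limma-voom) and 4 of 6 were higher in RBM5 OE (median 0.55), among them TSC22D3 (1.35, adjusted p = 0.000264), KLF9 (1.32, 1.12e-05), PER1 (0.46, 0.000769) and FKBP5 (0.35, 0.0083). Of the FOXO targets 1 of 8 was higher in RBM5 KO, IRS2 (0.96, adjusted p = 0.00484). In RBM5 OE 5 of 8 were higher, including TXNIP (0.99, adjusted p = 2.6e-06), KLF6 (1.18, 0.00111) and CDKN1B (0.35, 0.00347), and IRS2 was lower (−0.30, 0.00794). Between RBM5 OE and RBM5 KO 3 of 8 hypoxia targets, 5 of 6 glucocorticoid targets and 5 of 8 FOXO targets were higher in RBM5 OE, and 1 FOXO target, IRS2, was lower. Over all genes, 19.5% were higher and 20.6% lower in that comparison. In RBM5 OE against CTRL 19.8% of all genes were higher and 20.2% lower, and in RBM5 KO against CTRL 0.837% and 1.67%. The hypoxia share in RBM5 OE against CTRL, 2 of 7, was thus near that of all genes.

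**Figure D4:**
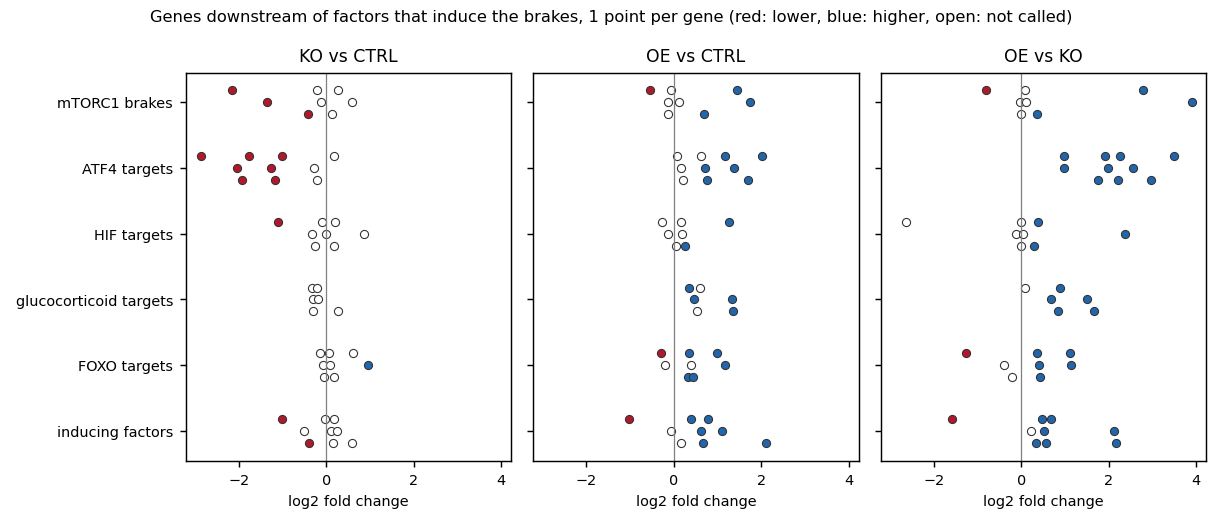
Log2 fold change (x axis) of every tested member of the brake list and of 5 lists of inducing factors and their targets (rows), 1 point per gene, for RBM5 KO over CTRL, RBM5 OE over CTRL and RBM5 OE over RBM5 KO; red is called lower, blue called higher and open not called. The ATF4 targets lie at a median of −1.22 in RBM5 KO and 0.73 in RBM5 OE.

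In RBM5 KO, of 57 tested genes for mTORC1 and mTORC2 subunits, lysosomal amino acid sensing, kinases acting on TSC and mTORC1 substrates, 4 were called lower (1.67% of all genes were) and 1 higher (0.837% of all genes were), with a median of −0.04 and a median absolute value of 0.13. The mTORC1 and mTORC2 subunit MLST8 fell to 68.7, 57.4 and 59.1 CPM in RBM5 KO, against 113, 118 and 100 CPM in CTRL, with no overlap (log2 fold change −0.84, standard error 0.10, adjusted p = 0.00601). EIF4EBP1 (4E-BP1), the translation repressor that mTORC1 inactivates, fell to 262, 168 and 192 CPM in RBM5 KO, against 434, 454 and 391 CPM in CTRL (−1.04, standard error 0.15, adjusted p = 0.0109). Its relative EIF4EBP3 fell as well (−1.05, standard error 0.14, adjusted p = 0.00706). PRR5L of mTORC2 was lower (−0.69, adjusted p = 0.0435), a call lost under 9 of 16 alternatives, and the folliculin partner FNIP1 was higher (0.52, adjusted p = 0.040), a call lost under 8 of 16. In RBM5 KO edgeR called 0 of 7 genes for GATOR1 and KICSTOR, 0 of 5 for GATOR2 and 0 of 13 for the TSC partner and kinases. At an unadjusted p under 0.05 there was 1 among these, DEPDC5 (−0.29, adjusted p = 0.182), and DESeq2 and limma-voom called 0.

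In RBM5 OE 15 of 56 of these genes were lower, beside 20.2% of all genes, and 10 were higher, beside 19.8%, with a median of −0.10 and a median absolute value of 0.23. Of the mTORC1 subunits MTOR (−0.25, adjusted p = 0.0266) and RPTOR (−0.24, 0.0474) were lower and MLST8 was higher (0.31, 0.00665). The RPTOR call was lost under 8 of 15 alternatives and the MTOR call under 4. Of the Ragulator scaffold that holds the Rag GTPases at the lysosome, LAMTOR2 (−0.86, adjusted p = 1.1e-05), LAMTOR5 (−0.55, 0.00103) and LAMTOR3 (−0.49, 0.00182) were lower. RRAGD, a Rag GTPase, was higher (0.70, 0.000191), a call lost under 2 of 15 alternatives. The amino acid brake GATOR1, on which the sestrins act, had lower DEPDC5 (−0.60, adjusted p = 0.000117) and NPRL2 (−0.29, 0.0267). These calls were lost under 2 and 5 of 15 alternatives. GATOR2, which the sestrins bind, had lower WDR59 (−0.34, 0.00639) and SEC13 (−0.31, 0.00761). Of the AMPK subunits PRKAB1 was higher (0.28, adjusted p = 0.00971), while PRKAG2 (−0.53, 0.00163) and the kinase AKT2 (−0.28, 0.00741) were lower. RHEB, the GTPase that TSC switches off, was at 0.01 in RBM5 KO and −0.11 in RBM5 OE, and TBC1D7 at −0.11 and −0.06, none called.

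Among the mTORC1 substrates in RBM5 OE, the lysosomal master regulator TFEB (0.72, adjusted p = 2.17e-05) and the autophagy kinase ULK1 (0.56, 0.00322) were higher, and LARP1 (−0.36, 0.00098) and RPS6KB2 (−0.28, 0.0251, lost under 6 of 15 alternatives) were lower. TFEB had 47.3, 48.9 and 49.5 CPM in RBM5 OE and 21.6, 23.5 and 24.1 CPM in RBM5 KO, against 29.2, 30.2 and 29.1 CPM in CTRL. In RBM5 KO its log2 fold change of −0.36 (adjusted p = 0.0925) was not called. Of the mTORC2 subunits RICTOR was higher (0.37, adjusted p = 0.0069, lost under 2 of 15 alternatives) and PRR5 lower (−1.06, 0.000359). The methionine sensor gene C7orf60 was higher (0.40, adjusted p = 0.00952, lost under 4 of 15 alternatives). Between RBM5 OE and RBM5 KO 13 of 57 of these genes were lower in RBM5 OE, beside 20.6% of all genes, and 12 higher, beside 19.5%. Both shares were thus near those of all genes. The 4 with the smallest p among subunits and substrates were TFEB (1.07, adjusted p = 2.57e-06), MLST8 (1.15, 4.87e-06), EIF4EBP3 (1.21, 1.93e-05) and EIF4EBP1 (0.87, 0.000377).

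**Figure D5:**
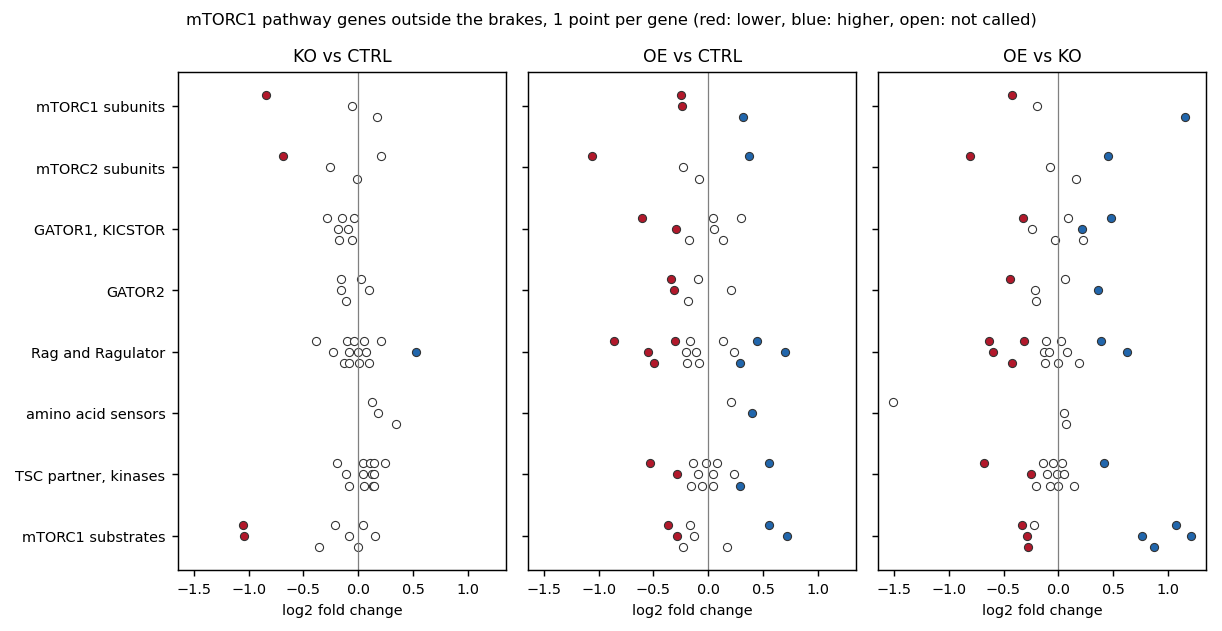
Log2 fold change (x axis) of every tested mTORC1 pathway gene outside the brakes, 1 point per gene, by complex or role (rows), for RBM5 KO over CTRL, RBM5 OE over CTRL and RBM5 OE over RBM5 KO; red is called lower, blue called higher and open not called. In RBM5 KO only MLST8, PRR5L, EIF4EBP1, EIF4EBP3 and FNIP1 are filled, and in RBM5 OE 15 points are red and 10 are blue.

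The genes whose levels over the 9 libraries were most like each brake were found by Pearson correlation of log2 CPM with 11629 genes. These values are a description, since all points share 3 groups and the group means set most of each correlation. DDIT4 was most like C9orf91 (r = 0.998), INHBE (0.998), an activin subunit gene, and SIAH2 (0.995), a ubiquitin ligase gene. SESN2 was most like the translation initiation factor gene EIF1 (0.997) and the ATF4 targets TRIB3 (0.995) and SLC7A11 (0.994), the cystine transporter. SESN1 was most like SLC20A1 (0.991), C6orf62 (0.990) and ABTB2 (0.989). TSC2 was most like RINL (0.990) and ATP13A2 (0.977), and SESN3 was most like MFSD6 (0.969), SRSF5 (0.953) and SYCP2L (0.951). The correlations were weaker for the brakes that were not called, led by SH3RF1 for TSC1 (0.934), SQRDL for AKT1S1 (0.930) and RBM4B for DEPTOR (0.918).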

How the data were processed

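RNA of 9 MOLM13 cultures was depleted of ribosomal RNA and sequenced as unstranded paired-end libraries. According to the submitters' processing notes, the authors used Trim Galore for trimming, STAR 2.7.1a for alignment to hg19 (GRCh37.p13), GATK 4.1.2.0 for duplicates and RSEM for counting, whereas the methods of the study name other software. The expected counts are the authors' deposited RSEM estimates per gene, not scaled between libraries. The TPM values are the authors' deposited RSEM abundances, scaled by transcript length and library. The 92 spike-ins (0 counts) were not used, and 0 columns were unmatched.

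Counts were rounded and tested with edgeR 4.0.16 in R 4.3.3 (filterByExpr, TMM, quasi-likelihood, Benjamini-Hochberg over all genes). RBM5 KO and RBM5 OE were each compared with CTRL in 6 libraries, and with each other in a fit of all 9. DESeq2 1.42.0, limma 3.58.1 (voom, log2(TPM + 1), log2(TPM + 0.1)), RLE scaling, other filters (none, or a CPM of at least 1 in 3 libraries), other sample sets, a replicate block and left-out libraries were alternatives. The scripts were tested on simulated data. Replicates differed beyond sampling noise, so none was treated as a duplicate. The labels call the replicates biological.

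The members, gene lists and tests were chosen with earlier results of these data known. The text names all 8 brakes, RBM5, up to 4 called genes with the smallest p from each list and comparison, and the 3 genes most like each brake among genes whose log2 CPM (prior count 2) averaged 1 or more. Some listed genes and 1 list are not reported here. Further genes of the lists were named after their values were seen. Coordinates are from a GENCODE annotation of GRCh37, and promoters from RefSeq with 250 bases before the start. Figures were drawn with matplotlib.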

Additional observations from a re-analysis of the deposited data

How the results depend on the processing

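In RBM5 KO against CTRL the number of brakes called, 3, was 1 with limma-voom, 1 on log2(TPM + 1) and 1 on log2(TPM + 0.1), and leaving out single libraries gave 0 to 3. The number of all genes called, 357, was 799 with DESeq2, 615 with no filter on low counts, 891 with all 9 libraries in 1 fit, 109 on log2(TPM + 1), 105 on log2(TPM + 0.1), 154 with the replicate block and 1959 with both CTRL replicate 3 and RBM5 KO replicate 1 left out, and leaving out single libraries gave 27 (without CTRL replicate 1) to 1114 (without RBM5 KO replicate 1). In RBM5 OE against CTRL and in RBM5 OE against RBM5 KO, both counts stayed within 1.5 times under every alternative. Calls of single genes that were lost under few alternatives are not all marked above. Directions turned for small values that were not called, and for the called gene DEPDC5. In RBM5 OE against CTRL, TSC1 was 0.071 and 0.078 and TSC2 0.037 and 0.038 on log2(TPM + 1) and log2(TPM + 0.1). In RBM5 OE against RBM5 KO, on the same scales, TSC1 was 0.10 and 0.11, AKT1S1 0.019 and 0.020 and DEPDC5 0.015 and 0.011. By counts DEPDC5 was −0.32 there and called lower, a call kept under 17 of 19 alternatives. Leaving out single libraries there gave TSC1 −0.086 to 0.037 and AKT1S1 −0.047 to 0.013. The cause was not tested. Replicates of the same number deviated together in no comparison (correlations −0.24 to 0.10), so the numbers were not treated as pairs. With 3 libraries a group, these correlations do not settle whether the libraries are paired. The largest correlation between libraries of different groups was that of RBM5 KO replicate 1 with CTRL replicate 3 (0.355). Its cause was not tested. Among the brakes the replicate block removed the call of TSC2 in RBM5 KO (edgeR, adjusted p = 0.193) and changed no other call. With 3 libraries a group, the calls of SESN2 and TSC2 in RBM5 KO lay close to the threshold, and the spread of CTRL sets how small a fall of DDIT4 or SESN2 could be called.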

Other observations

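Lysosomal and autophagy genes, many of them targets of TFEB, which mTORC1 keeps out of the nucleus, were compared as well. In RBM5 KO 0 of 18 were called by edgeR's quasi-likelihood test. At an unadjusted p under 0.05, 6 were higher and 0 lower, while DESeq2 called 1 higher and limma-voom 0. Their log2 fold changes ran from −0.09 to 1.13, with a median of 0.18, where that of all genes was 0.01. In RBM5 OE 5 of 17 were higher, beside 19.8% of all genes, and 3 lower, beside 20.2%. The median was 0.12, where that of all genes was 0.01. The sphingolipid activator precursor PSAP (0.80, adjusted p = 6.97e-05), the autophagy receptor SQSTM1 (0.69, 0.00039), ATP6V1H of the proton pump (0.32, 0.00179) and the chloride transporter CLCN7 (0.28, 0.00434) rose in RBM5 OE. Between RBM5 OE and RBM5 KO 3 of 18 were higher in RBM5 OE, beside 19.5% of all genes, and 6 lower, beside 20.6%. The calcium channel gene MCOLN1 (−0.79, adjusted p = 0.000788) was among the lower. PSAP had 336, 665 and 618 CPM in RBM5 KO and 719, 767 and 804 CPM in RBM5 OE, against 440, 503 and 378 CPM in CTRL, with RBM5 KO replicate 1 and CTRL replicate 3 lowest in their groups.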
